A study of Mus musculus with 12 samples.

Results

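The genes described here are 10 receptors and ligands that set the threshold at which a natural killer (NK) cell responds. Tigit, Cd96 and Cd226 encode nectin-binding receptors, and Lag3, Havcr2, Pdcd1, Ctla4 and Cd200r1 encode inhibitory or checkpoint receptors. Cd160 encodes a receptor for the herpesvirus entry mediator, and Cd274 encodes a PD-1 ligand. The 10 genes were taken by symbol from a deposited table of 55487 features. All 10 were in the table, and all 10 were among the 12364 genes tested, which had a log2 CPM (reads on the gene relative to the library total, given per M reads, where M stands for mega) above 0 in at least 4 of 12 samples. Pdcd1 passed that filter only through stimulated samples, and Ctla4 and Cd226 passed it without support from most or all of the YFP+ samples.

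RNA-seq was done on mouse NK cells primed with IL-15, a cytokine that NK cells need to survive. The titles of all samples read HD IL-15 and do not spell out HD. All samples came from the reporter strain B6.129S4-Ifngtm3.1Lky/J with the genotype mut/mut, in which yellow fluorescent protein (YFP) reports on the interferon gamma gene. The 3 groups of 4 samples were unstimulated cells, cells given anti-NK1.1 for 6 h and sorted as YFP-, and cells given the same antibody for 6 h and sorted as YFP+. Anti-NK1.1 binds the activating receptor encoded by Klrb1c. Unstimulated samples carry no time point, the age of the mice is not given, and no sample came from mice without the reporter allele. Each group has replicates f2, m2, m3 and m4, titled F, M2, M3 and M4, and the titles do not say what the letters stand for. The labels do not say whether samples came from separate mice, so p-values measure the spread between these samples, which may be in part technical. In sorted populations fewer cells expressing a gene and less RNA per cell cannot be told apart.

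Nectin-binding receptors compete for ligands on neighbouring cells: Cd226 encodes an activating receptor, while Tigit encodes an inhibitory receptor for overlapping ligands and Cd96 binds one of them. PD-1, CTLA-4, LAG-3 and TIM-3 (encoded by Havcr2) are best known as checkpoints that restrain activated T cells, and each has also been studied in NK cells. The balance of activating and inhibitory input decides whether an NK cell kills or secretes cytokines.

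Libraries held 32.1 to 54.2 M reads, so that 3 reads, the lowest level taken as shown, equal 0.0553 to 0.0933 CPM. Such limits cover counting error only, since no molecular identifiers are named. Reads on rRNA-like features made up 13.7 to 35.3% of a library. The YFP- and YFP+ samples m3 had the highest shares of their groups, 30.3% and 29.8%, and the YFP+ sample m3 correlated least with its group (Pearson r across genes down to 0.938, against at least 0.974 in unstimulated and 0.980 in YFP- samples). Those m3 samples were the lowest of their group for 7 of 10 members in YFP- and for 7 of 10 in YFP+. Their part in the results was not tested, and values without them are given where they matter. NK markers summed to 9730 to 16473 CPM in every library. Of the T cell markers, Cd4, Cd8a, Cd8b1 and Foxp3 had at most 7 reads per library and Cd3e at most 66, while 5 of 11 (Cd3d, Cd3g, Trac, Trbc1 and Trbc2) were abundant enough to test. The summed list was at 513 to 583, 742 to 846 and 837 to 944 CPM in unstimulated, YFP- and YFP+ samples, and 3 of the 5 were called higher in each stimulated group than in unstimulated samples, with 2 lower in YFP+; their part in the members' changes was not tested. The B cell (6 genes), neutrophil (5) and erythroid (4) lists summed to at most 4.38, 0.737 and 0.158 CPM. The myeloid and dendritic list (10) summed to 29.3 to 71.1 CPM, mostly Itgax and Zbtb46, with Adgre1 at no more than 1 read per library, and the mast cell and basophil list (4) to 9.42 to 27.8 CPM, mostly Mcpt8.

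Members were compared in limma across all genes tested, with a Benjamini-Hochberg adjusted p under 0.05 as the call. Against unstimulated samples, YFP- samples had 6 members higher and 1 lower, where 30.2% of all genes tested were called higher and 20.9% lower. YFP+ samples had 3 members higher and 4 lower than unstimulated samples, against 27.5% of all genes called higher and 33.3% called lower. Between the sorted populations no member was called higher in YFP+ by limma (3.28% of all genes were; 2 members were higher at an unadjusted p under 0.05, and 2 were called with voom weights) and 6 were called lower (18.5% of all genes were). The members' median log2 change was 0.996, -0.40 and -0.78 in these comparisons, and that of all genes tested was 0.14, -0.03 and -0.19. The groups did not overlap for 8, 8 and 6 of the 10 members in the order YFP- against unstimulated, YFP+ against unstimulated and YFP+ against YFP-, where 52.7%, 54.7% and 22.1% of all genes tested had groups without overlap. The comparisons share samples, so their values are set side by side and not correlated. The plot of levels per sample and the plot of changes show every member.

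**Figure D1:**
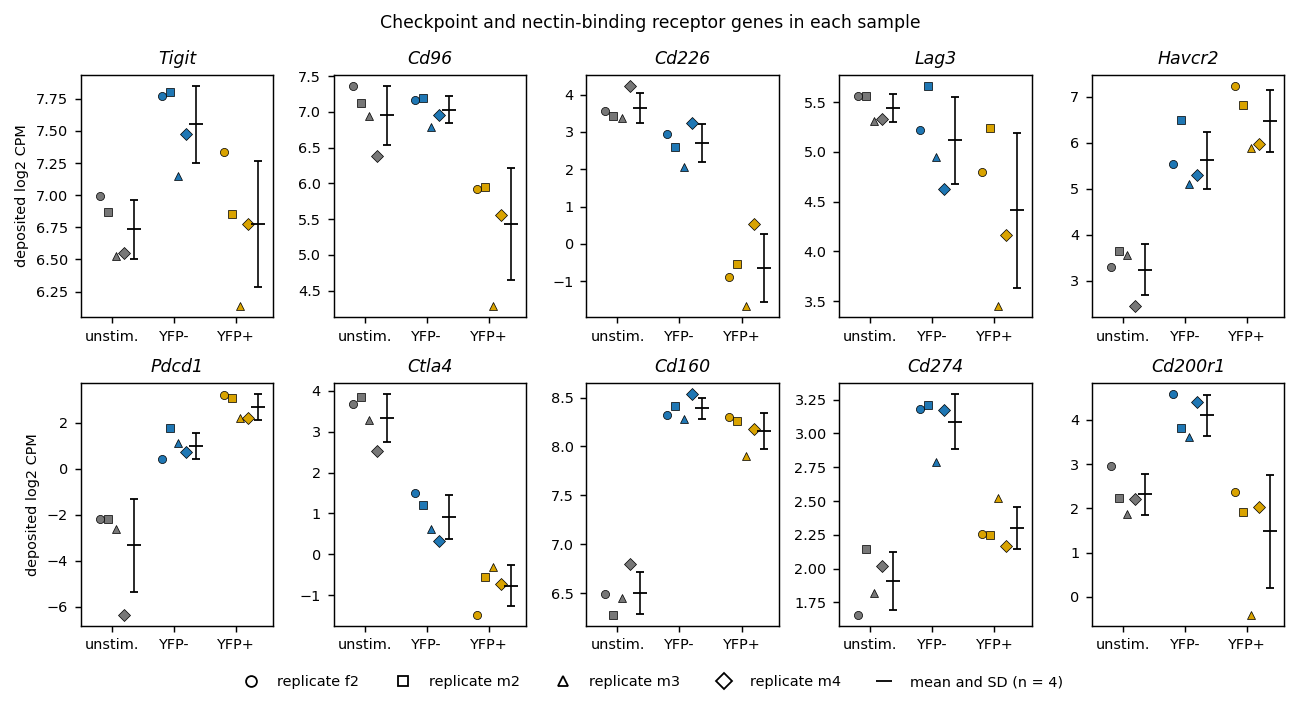
Deposited log2 CPM of each of the 10 genes in the 12 samples (points, shaped by replicate and coloured by group), with the mean and SD of 4 samples beside them. Pdcd1, Havcr2, Cd160 and, by a small margin, Cd274 were higher in all stimulated samples than in any unstimulated sample. Cd226, Ctla4 and Cd96 had every YFP+ sample below every other sample.

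**Figure D2:**
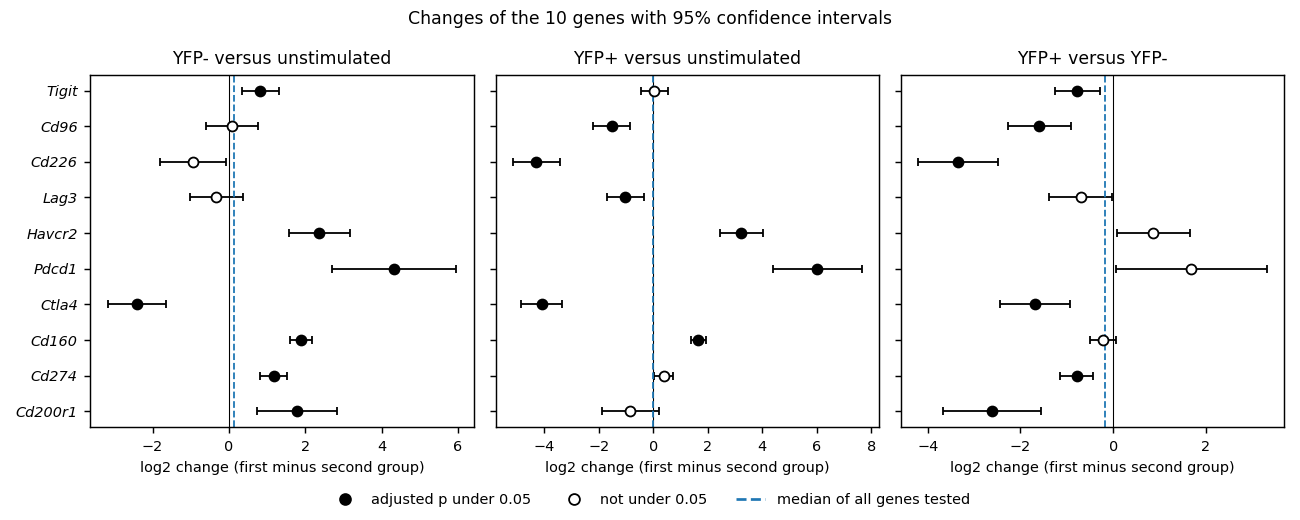
The log2 change of each gene in limma with its 95% confidence interval, in 3 panels, filled where the adjusted p was under 0.05. The dashed line is the median of all 12364 genes tested, which was 0.14, -0.03 and -0.19 from left to right.

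The 250 bases before the annotated start are shown for 2 members that rose in both stimulated groups, 1 that fell in both and 2 nectin receptor genes of chromosome 16, since transcription of the gene starts at their end. RefSeq's promoter table on GRCm38.p6 held windows for 7 of the 10 members, and 5 are printed on the strand of the gene. Pdcd1 (chr1:94052554-94052803, minus strand) and Havcr2 (chr11:46454681-46454930, plus strand) rose in both stimulated groups. Ctla4 (chr1:60908775-60909024, plus strand) fell in both. Tigit (chr16:43664185-43664434, minus strand) and Cd96 (chr16:46120249-46120498, minus strand) are nectin receptor genes on the same chromosome. Capitals mark matches on either strand to 7 motifs.
Pdcd1: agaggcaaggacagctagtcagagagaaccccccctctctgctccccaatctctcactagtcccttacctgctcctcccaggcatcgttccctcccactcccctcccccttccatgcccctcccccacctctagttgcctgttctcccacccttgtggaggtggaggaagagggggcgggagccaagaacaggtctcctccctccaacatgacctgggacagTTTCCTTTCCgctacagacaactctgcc
Havcr2: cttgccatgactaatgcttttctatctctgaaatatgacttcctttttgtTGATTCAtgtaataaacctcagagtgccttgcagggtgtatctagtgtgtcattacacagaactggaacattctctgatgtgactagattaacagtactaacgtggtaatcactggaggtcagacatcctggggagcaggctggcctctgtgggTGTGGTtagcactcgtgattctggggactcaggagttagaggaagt
Ctla4: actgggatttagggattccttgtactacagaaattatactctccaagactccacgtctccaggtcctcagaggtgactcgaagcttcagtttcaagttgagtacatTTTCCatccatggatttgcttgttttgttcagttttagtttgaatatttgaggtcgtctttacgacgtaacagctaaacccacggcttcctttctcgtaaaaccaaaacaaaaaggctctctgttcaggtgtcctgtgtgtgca
Tigit: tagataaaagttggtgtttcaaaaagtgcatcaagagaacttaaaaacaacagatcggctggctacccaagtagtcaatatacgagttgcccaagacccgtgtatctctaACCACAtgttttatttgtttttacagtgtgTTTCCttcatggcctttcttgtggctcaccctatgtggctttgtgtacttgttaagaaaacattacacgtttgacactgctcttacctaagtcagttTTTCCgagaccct
Cd96: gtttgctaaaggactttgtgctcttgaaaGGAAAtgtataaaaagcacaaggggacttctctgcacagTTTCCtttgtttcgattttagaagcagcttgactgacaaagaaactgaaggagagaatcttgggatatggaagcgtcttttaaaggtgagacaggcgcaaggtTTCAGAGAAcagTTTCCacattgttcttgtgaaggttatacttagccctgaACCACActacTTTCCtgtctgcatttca

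The motifs searched on both strands were GGAAA (the core bound by NFAT), TGTGGT (RUNX), TGANTCA (AP-1), TTCNNNGAA (STAT), GCGNGGGCG (EGR), AAAGGTCA (NR4A) and AGGTGTGA (T-box), and matches of different motifs may overlap. Among the 32851 windows of this length in the table, 55.6% held GGAAA, 14.0% TGTGGT, 6.75% TGANTCA, 7.02% TTCNNNGAA, 4.70% GCGNGGGCG, 1.34% AAAGGTCA and 1.12% AGGTGTGA. The Pdcd1 window had 2 abutting GGAAA matches, the nearer 18 bases from the start. The Cd96 window had 4 GGAAA matches, the Tigit window 2, the Ctla4 window 1 and the Havcr2 window none. TGTGGT matched in 4 of the 7 members with a window, namely Cd160, Havcr2, Tigit and Cd96. Havcr2 alone among them had a TGANTCA match, 193 bases from its start. A match is a description of letters, not of binding. The Ctla4 start used by RefSeq lies inside the longer gene model of GENCODE M21, which begins further upstream.

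Cd226, which encodes the activating nectin receptor DNAM-1 (ENSMUSG00000034028, 4891 bases of exon in GENCODE M21), fell most of the nectin-binding genes. It was at 11.8, 10.7, 10.3 and 18.9 CPM in unstimulated samples f2, m2, m3 and m4, at 7.74, 6.02, 4.12 and 9.44 CPM in YFP-, and at 0.531, 0.682, 0.304 and 1.43 CPM in YFP+, the last being 26, 37, 11 and 46 reads. All 4 YFP+ samples were below all YFP- samples, which in turn were all below the unstimulated samples, and m4 was the highest of each group. The log2 change of YFP+ from YFP- was -3.34 ± 0.40 (SE; limma adjusted p = 7.9e-05), a 10.2-fold lower level, and from unstimulated samples -4.28 ± 0.40 (limma adjusted p = 7.2e-07), 19.5-fold lower. YFP- against unstimulated gave -0.94 ± 0.40 (limma adjusted p = 0.063), which was not past the threshold although all same-label pairs went down. It passed under 8 of 15 alternatives, among them without the YFP+ sample m3 (limma adjusted p = 0.026) and without label m4 (limma adjusted p = 0.046). With a pseudocount of 1 CPM the change between YFP+ and YFP- was -2.16, since that constant is close to the YFP+ level.

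Tigit (ENSMUSG00000071552; GRCm38 chr16:43648867-43664146, minus strand) was highest in YFP-. Its levels were 127, 117, 92.2 and 93.9 CPM in unstimulated samples, 218, 223, 142 and 178 CPM in YFP- and 162, 116, 70.5 and 109.7 CPM in YFP+. All YFP- samples exceeded all unstimulated samples, while the YFP+ samples overlapped both other groups and m3 was the lowest stimulated sample of each sort. The YFP- level was 0.82 ± 0.22 higher in log2 than the unstimulated level (limma adjusted p = 0.0081, and 0.06 without label m4). YFP+ was below YFP- by a log2 change of -0.77 ± 0.22 (limma adjusted p = 0.025), and this call was lost under 7 of 15 alternatives. Without the YFP+ sample m3 it was -0.56 (limma adjusted p = 0.053), with trimmed-mean (TMM) scaling -0.62 (limma adjusted p = 0.067), and without labels m2 and m4 in turn the limma adjusted p was 0.13 and 0.11. Against unstimulated samples the YFP+ change was 0.04, with a 95% confidence interval from -0.44 to 0.53 and a sign that turned without rRNA-like features in the totals (-0.15).

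Cd96 (ENSMUSG00000022657; chr16:46035657-46120251, minus strand), whose product binds the same poliovirus receptor as Tigit's, differed between the sorted populations. Unstimulated samples had 164, 139, 124 and 83.4 CPM, YFP- samples 143, 147, 111 and 125 CPM, and YFP+ samples 60.9, 61.6, 19.5 and 47.3 CPM. Every YFP+ sample was below every other sample, with m3 lowest, and the other groups overlapped. The log2 change was -1.60 ± 0.32 from YFP- (limma adjusted p = 0.0028) and -1.52 ± 0.32 from unstimulated samples (limma adjusted p = 0.00086). Without the YFP+ sample m3 these were -1.22 (limma adjusted p = 0.00092) and -1.14 (limma adjusted p = 0.00023). YFP- and unstimulated samples differed by 0.08, with a 95% confidence interval from -0.60 to 0.75, and the sign turned under 3 alternatives.

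Ratios within a sample do not depend on the library total. They are not corrected for exon length (919 bases for Tigit, 2184 for Cd96 and 4891 for Cd226). Their sign therefore does not rank the genes, and only their differences between groups are read. The log2 ratio of Tigit to Cd226 was 3.09 ± 0.53 (SD, n = 4) before stimulation, 4.84 ± 0.43 for the YFP- sort and 7.41 ± 0.85 for the YFP+ sort. Unstimulated samples thus had 4.97 to 10.9 Tigit reads per Cd226 read, YFP- samples 18.9 to 37.0 and YFP+ samples 76.7 to 305. None of the 3 groups overlapped. The log2 ratio of Cd96 to Cd226 was 3.30 ± 0.78, 4.32 ± 0.46 and 6.07 ± 0.77, and that of Tigit to Cd96 was -0.22 ± 0.27, 0.52 ± 0.12 and 1.35 ± 0.40, in the same order of groups. In 2-sided exact permutation tests, 8 of 9 differences had p = 0.0286, the smallest that 4 against 4 samples allow (adjusted over the 9 tests, 0.0321). The Cd96 to Cd226 ratio of YFP- and unstimulated samples overlapped (exact p = 0.0571). With a pseudocount of 1 CPM the YFP+ and YFP- values of that ratio differed by 0.59 (exact permutation p = 0.257), against 1.75 as deposited. Those of the Tigit to Cd226 ratio then differed by 1.40 (exact permutation p = 0.0286), against 2.57. Both sizes rest on the low Cd226 reads of YFP+. All 3 ratios were highest in YFP+, intermediate in YFP- and lowest in unstimulated samples by their means, as the plot of ratios shows.

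**Figure D3:**
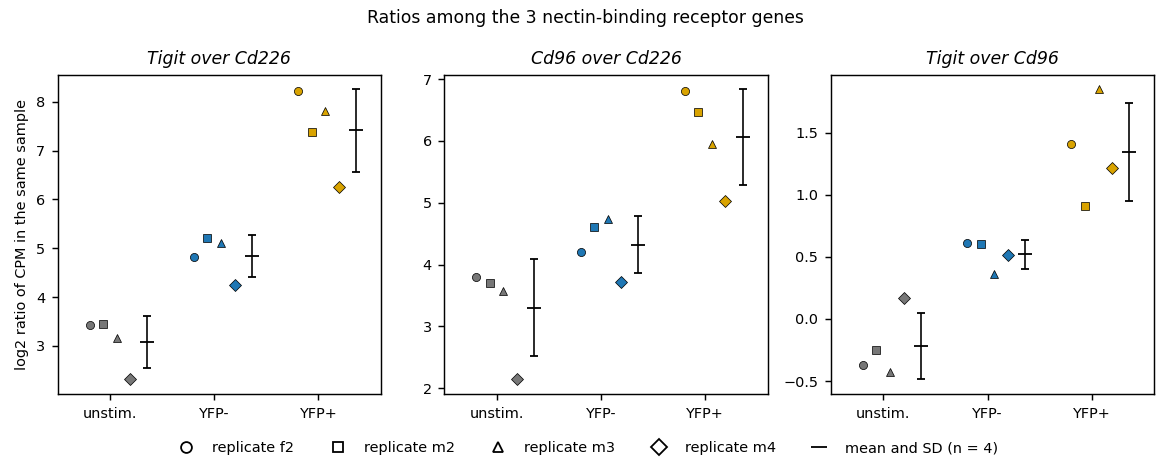
The log2 ratio of CPM between pairs of nectin-binding receptor genes in each of the 12 samples (points, shaped by replicate), with mean and SD of 4 samples. The Tigit to Cd226 ratio had a mean of 3.09, 4.84 and 7.41 in unstimulated, YFP- and YFP+ samples, with no overlap.

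Havcr2 (ENSMUSG00000020399; chr11:46454935-46481255, plus strand), encoding the receptor TIM-3, was higher in stimulated samples. Levels were 9.89, 12.6, 11.9 and 5.49 CPM in unstimulated samples, 46.7, 90.6, 34.7 and 39.7 CPM in YFP-, and 152, 114, 58.8 and 62.5 CPM in YFP+. No stimulated sample fell into the unstimulated range, while the YFP- sample m2 lay above 2 of the YFP+ samples. The rise in log2 was 2.37 ± 0.37 in YFP- (limma adjusted p = 0.00014) and 3.23 ± 0.37 in YFP+ (limma adjusted p = 4.7e-06), 5.17-fold and 9.39-fold. YFP+ against YFP- gave 0.86 (95% confidence interval 0.07 to 1.65; limma adjusted p = 0.11), with all 4 same-label pairs higher in YFP+. It passed the threshold under 3 of 15 alternatives. These were centring (1.12, limma adjusted p = 0.016), voom weights (limma adjusted p = 0.046) and the replicate label as a block (limma adjusted p = 0.028).

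Pdcd1 (ENSMUSG00000026285; chr1:94038305-94052553, minus strand), encoding PD-1, went from near the detection limit to a low level. Unstimulated libraries held 8, 8, 6 and 0 reads, YFP- libraries 59, 167, 93 and 81 reads and YFP+ libraries 461, 466, 169 and 148 reads. That corresponds to mean levels of 0.143 ± 0.0992 CPM (SD, n = 4), 2.13 ± 0.902 CPM and 6.82 ± 2.55 CPM, and none of the 3 groups overlapped. The log2 change from unstimulated samples was 4.33 ± 0.76 in YFP- (limma adjusted p = 0.00036) and 6.02 ± 0.76 in YFP+ (limma adjusted p = 1.2e-05). Because the m4 unstimulated library had no read, these sizes depend on the added prior: a pseudocount of 1 CPM gave 1.41 and 2.72, and the ratio of mean CPM was 14.9 and 47.8. YFP+ against YFP- gave 1.69 ± 0.76 (limma adjusted p = 0.13), not past the threshold in spite of separate groups, and it passed under 4 of 15 alternatives. The fit shares 1 estimate of spread, and the SD in log2 was 2.03 without stimulation against 0.58 and 0.55 in the YFP- and YFP+ sorts. A fit of the stimulated samples alone gave a limma adjusted p of 0.0091. A pseudocount of 1 CPM gave 1.305 (limma adjusted p = 0.0013), voom weights gave a limma adjusted p of 0.0033, and leaving out label m4 gave 1.76 (limma adjusted p = 0.018). Leaving out label f2 gave 1.31 (limma adjusted p = 0.33).

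Ctla4 (ENSMUSG00000026011; chr1:60887000-60915832, plus strand), encoding the receptor for Cd80 and Cd86 products that outcompetes CD28, went the opposite way to Pdcd1 on the same chromosome. Unstimulated samples had 12.7, 14.4, 9.71 and 5.73 CPM, YFP- samples 2.82, 2.29, 1.52 and 1.24 CPM, and YFP+ samples 0.347, 0.664, 0.801 and 0.591 CPM, the last from 17, 36, 29 and 19 reads. The 3 groups were separate. The log2 change was -2.42 ± 0.35 in YFP- (limma adjusted p = 8.2e-05) and -4.10 ± 0.35 in YFP+ (limma adjusted p = 3.3e-07), and between the sorted populations -1.68 ± 0.35 (limma adjusted p = 0.004). With a pseudocount of 1 CPM the last was -0.87 (limma adjusted p = 0.019). A processed pseudogene, Rpl18-ps1, lies in an intron of Ctla4 and shares no exon with it.

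Lag3 (ENSMUSG00000030124; chr6:124904361-124911705, minus strand), whose product binds MHC class II, was lower in YFP+ than in unstimulated samples. Levels were 47.3, 47.2, 39.8 and 40.3 CPM in unstimulated samples, 37.3, 50.8, 30.9 and 24.7 CPM in YFP-, and 27.7, 37.9, 10.9 and 17.9 CPM in YFP+. The YFP- samples overlapped both other groups. YFP+ differed from unstimulated samples by -1.03 ± 0.32 in log2 (limma adjusted p = 0.012), and by -0.98 without label m4 (limma adjusted p = 0.056). Without the YFP+ sample m3 the change was -0.71 (limma adjusted p = 0.026). The changes of YFP+ from YFP- (-0.70, 95% confidence interval -1.39 to -0.02; limma adjusted p = 0.14) and of YFP- from unstimulated samples (-0.33, -1.01 to 0.36; limma adjusted p = 0.41) did not pass. The change of YFP+ from YFP- passed under 1 of 15 alternatives, with the replicate label as a block (limma adjusted p = 0.035). Without the YFP+ sample m3 it was -0.38 (limma adjusted p = 0.34).

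Cd160 (ENSMUSG00000038304; chr3:96798763-96829351, minus strand), which encodes a receptor for the herpesvirus entry mediator, was higher in both stimulated groups. It was at 90.0, 77.7, 87.2 and 111 CPM in unstimulated samples, 320.4, 341, 311 and 370.4 CPM in YFP-, and 316, 307, 238 and 289 CPM in YFP+. Both stimulated groups lay above all unstimulated samples and overlapped each other. The rise was 1.88 ± 0.13 in log2 in YFP- (limma adjusted p = 1.8e-07) and 1.66 ± 0.13 in YFP+ (limma adjusted p = 1.6e-07), 3.69-fold and 3.15-fold. YFP+ against YFP- gave -0.23, with a 95% confidence interval from -0.51 to 0.05 (limma adjusted p = 0.23), and 0.03 after centring each sample on its median. Its exons overlap those of Pdzk1 on the other strand by 68 bases, and Pdzk1 had at most 35 reads per library.

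Cd274 (ENSMUSG00000016496; chr19:29367455-29388095, plus strand), encoding the PD-1 ligand PD-L1, was highest in YFP-. Unstimulated samples had 3.15, 4.42, 3.51 and 4.04 CPM, YFP- samples 9.05, 9.24, 6.89 and 9.01 CPM, and YFP+ samples 4.76, 4.74, 5.75 and 4.48 CPM. The 3 groups did not overlap, with YFP+ between the others. The log2 change from unstimulated to YFP- was 1.18 ± 0.16 (limma adjusted p = 6.1e-05), and from YFP- to YFP+ -0.79 ± 0.16 (limma adjusted p = 0.0039). From unstimulated to YFP+ it was 0.39 ± 0.16 (limma adjusted p = 0.055), which passed with TMM scaling (0.52, limma adjusted p = 0.0086), centring and voom weights. An antisense gene, AC119228.1, overlaps its exons by 511 bases with at most 51 reads, and the strand setting of the counting is not given in the sources used here.

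Cd200r1 (ENSMUSG00000022667; chr16:44765736-44794978, plus strand), encoding an inhibitory receptor for CD200, also peaked in YFP-. It was at 7.82, 4.68, 3.66 and 4.59 CPM in unstimulated samples, 23.9, 14.1, 12.3 and 21.0 CPM in YFP-, and 5.13, 3.76, 0.746 and 4.11 CPM in YFP+. All YFP- samples were above all others, and the YFP+ sample m3 (27 reads) was far below the rest of its group. The log2 change was 1.78 ± 0.49 from unstimulated to YFP- (limma adjusted p = 0.008, and 0.061 without label m4). From YFP- to YFP+ it was -2.62 ± 0.49 (limma adjusted p = 0.0019), and -1.998 without the YFP+ sample m3 (limma adjusted p = 0.00029). YFP+ and unstimulated samples differed by -0.84 (95% confidence interval -1.90 to 0.22; limma adjusted p = 0.15), and by -0.21 without that sample. Reads could be split with its paralogs Cd200r2, Cd200r3 and Cd200r4, so its level is uncertain.

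Tigit, Cd200r1 and Cd96 lie within 2.47 Mb of chromosome 16 (chr16:43648867-46120251), a stretch chosen after the values were seen and because it holds these 3 members. It holds 35 protein coding genes, of which 20 were tested. Including the 3 members, 8 of the 20 were lower in YFP+ than in YFP-, 10 were higher in YFP- than in unstimulated samples, and 5 were higher and 4 lower in YFP+ than in unstimulated samples. Of all genes tested, 18.5%, 30.2%, 27.5% and 33.3% were called in these directions, and with the members among the 20 nothing is read from the difference. Cd200r4 and Cd200r2, next to Cd200r1, were also lower in YFP+ than in YFP-, by log2 changes of -2.14 (limma adjusted p = 0.00067) and -3.32 (limma adjusted p = 0.0012). So were 3 other genes of the stretch that are not members. They were Spice1 (-1.05, limma adjusted p = 0.0065), Ccdc80 (-3.47, limma adjusted p = 0.027) and Slc35a5 (-0.70, limma adjusted p = 0.021). Ccdc80 was low, with a mean of 2.10 CPM for the YFP- sort against 0.318 CPM for the YFP+ sort and 0.107 CPM before stimulation. Ccdc80 thus passed the filter mainly through YFP-, the group where it was higher, and the size of its change rests on few reads elsewhere. Others in the stretch, such as Atg3 (-0.12, limma adjusted p = 0.56) and Naa50 (0.09, limma adjusted p = 0.7), did not pass. Btla and Cd200 lie in the same stretch and were not tested, with mean levels of at most 0.0203 and 0.967 CPM in any group.

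Levels of different genes can be set side by side only per length, here as CPM per kb of annotated exon. In unstimulated samples the order of means was Tigit (117), Cd96 (58.4), Cd160 (34.6), Lag3 (20.7), Ctla4 (4.56), Havcr2 (3.66), Cd226 (2.65), Cd200r1 (1.55), Cd274 (1.04) and Pdcd1 (0.0740). Ranges overlapped between the neighbours Cd96 and Cd160, Ctla4 and Havcr2, Havcr2 and Cd226, Cd226 and Cd200r1, and Cd200r1 and Cd274. In YFP- samples Tigit (207, range 155 to 242) and Cd160 (127, range 118 to 140.2) stood above the rest, with Havcr2 and Lag3 overlapping at 19.4 and 17.0. In YFP+ samples Tigit and Cd160 overlapped at 124 and 109 CPM per kb. Havcr2 (35.5) and Cd96 (21.7) followed and overlapped, as did Cd96 and Lag3 (11.2). Pdcd1 (3.53) stood above Cd274 (1.36), and Ctla4 (0.258) and Cd226 (0.151) were lowest and overlapped. Pdcd1 thus moved from the lowest place to the sixth of 10, and Ctla4 from the fifth to the ninth, as the plot of length-corrected levels shows.

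**Figure D4:**
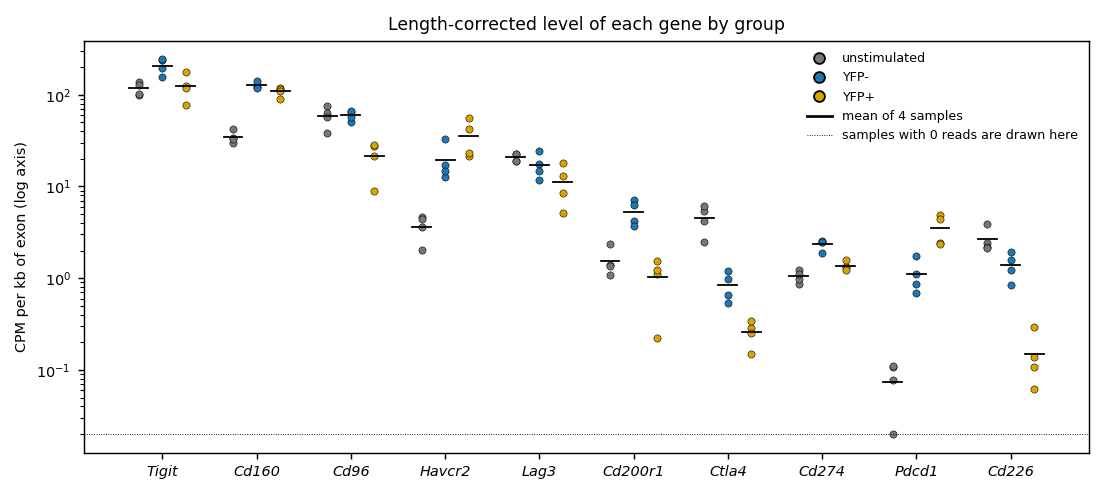
CPM per kb of exon on a log axis for each gene, ordered by the mean of all 12 samples, with points for samples coloured by group and bars for the mean of 4. Tigit has a mean of 117, 207 and 124, Pdcd1 of 0.0740, 1.102 and 3.53, and Ctla4 of 4.56, 0.845 and 0.258 in unstimulated, YFP- and YFP+ samples.

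The direction of small changes depends on how samples are scaled. In YFP+ against YFP-, 405 genes were higher and 2286 lower on the deposited scale, 1015 and 1675 with TMM scaling, and 1505 and 1491 after centring, with a median change of all genes of -0.19, -0.04 and 0.07. For YFP- against unstimulated samples 3735 were higher and 2586 lower as deposited, and 3070 and 3439 when totals excluded rRNA-like features. Ctla4, Cd96, Cd226, Cd274 and Cd200r1 were called lower in YFP+ than in YFP- under all 15 alternatives run, and Tigit under 8. Cd160 had a change above 0 under 1 of them, as the plot of settings shows. Over the 3 comparisons, 17 of 30 member results kept direction and side of the threshold under all 15.

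**Figure D5:**
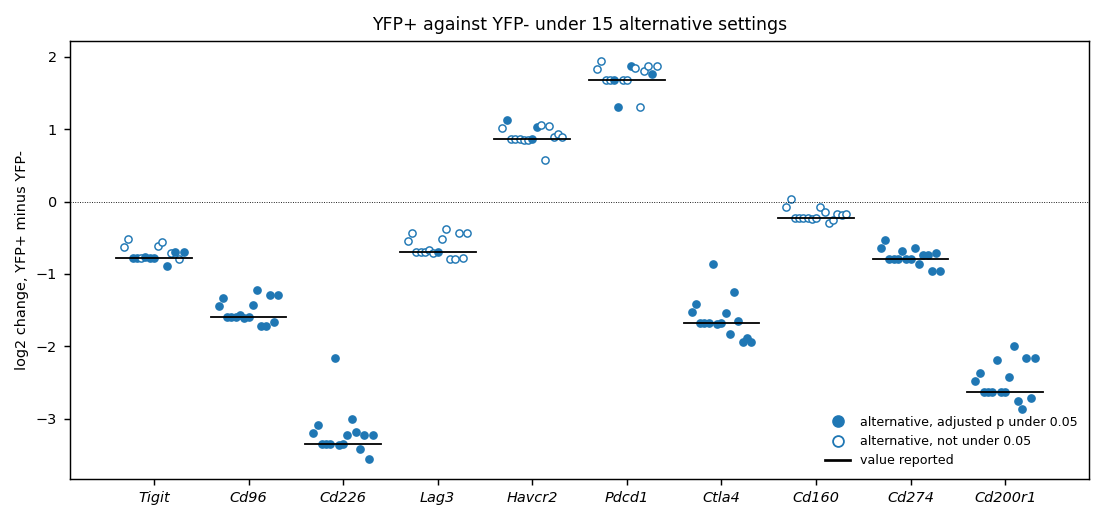
The log2 change of YFP+ from YFP- for each gene under 15 alternative settings (points, filled where the limma adjusted p was under 0.05), with the reported value as a line. Cd226 stays at or below -2.16, while Tigit, Havcr2, Pdcd1 and Lag3 include both filled and open points.

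Of 8 further genes of the nectin axis, Pvr, Pvrig and Crtam were abundant enough to test, while Nectin1, Nectin2, Nectin3, Nectin4 and Cadm1 were at mean levels of at most 1.04 CPM. Crtam, encoding a receptor that binds a nectin-like protein, rose from 13.3 CPM in unstimulated to 1470.0 CPM in YFP- (log2 change 6.79, limma adjusted p = 2.1e-09) and 1704 CPM in YFP+ (6.89, limma adjusted p = 8.2e-10). Pvrig, encoding an inhibitory nectin receptor, had 27.1, 22.6 and 6.16 CPM and fell by 1.88 in log2 from YFP- to YFP+ (limma adjusted p = 2.6e-06). Pvr, encoding the ligand that Tigit and Cd226 products share, had 5.19, 3.73 and 3.32 CPM and was lower in YFP+ than in unstimulated samples (-0.66, limma adjusted p = 0.023). In counts, 1 of 3 was lower in YFP+ against YFP-, 1 was higher in YFP- against unstimulated, and 1 was higher and 2 lower in YFP+ against unstimulated samples. The shares of all genes tested were 3.28% higher and 18.5% lower, 30.2% and 20.9%, and 27.5% and 33.3% in that order of comparisons. The opposite directions of the first and second comparison had 0 genes in limma, 0 at an unadjusted p under 0.05 and 0 with voom weights.

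Of 14 checkpoint ligand genes listed, which include ligands of other receptors (Icosl, Cd276, Vtcn1 and Vsir), 8 were tested. In YFP+ against YFP- samples 1 was higher and 3 lower, and against unstimulated samples 4 were higher and 3 lower in YFP-, and 3 and 4 in YFP+. Shares of all genes tested were 3.28% higher and 18.5% lower, 30.2% and 20.9%, and 27.5% and 33.3% in that order. Pdcd1lg2, encoding the other PD-1 ligand, rose by 1.71 in YFP- (limma adjusted p = 2.8e-07) and 1.85 in YFP+ (limma adjusted p = 4.5e-08). Its levels were 22.5, 73.4 and 81.2 CPM, so that unlike Cd274 it was not lower in YFP+ by its mean. Ceacam1, a TIM-3 ligand gene, rose from 0.571 to 20.7 and 46.6 CPM. Lgals9, encoding the TIM-3 ligand galectin-9, fell from 199 to 80.8 and 44.3 CPM. Lgals3 and Hmgb1 were abundant, at 1194 and 594 CPM in unstimulated samples and 5369 and 331 CPM in YFP+. Cd80, Cd86 and Fgl1, encoding ligands of CTLA-4 and LAG-3, had mean levels of at most 0.289, 1.102 and 0.0216 CPM.

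Of 22 further receptors listed, 20 were in the table and 12 were tested. In YFP+ against YFP- 7 were lower and 0 higher in limma (1 at an unadjusted p under 0.05 and 1 with voom weights), with a median log2 change of -1.27, against -0.19 for all genes. In YFP- against unstimulated samples 5 were higher and 2 lower, and in YFP+ 2 were higher and 6 lower. Among all genes tested 3.28% were higher and 18.5% lower in YFP+ against YFP-. Against unstimulated samples the shares were 30.2% and 20.9% in YFP-, and 27.5% and 33.3% in YFP+. Klrg1, an inhibitory lectin receptor, was at 71.3, 77.1 and 18.6 CPM and fell by 2.07 in log2 from YFP- to YFP+ (limma adjusted p = 0.00013). Klrc1, encoding NKG2A, was highest in YFP- like Tigit, at 52.4, 251 and 132 CPM. Cd28, the costimulatory relative of Ctla4, rose instead, from 72.6 to 124 and 199 CPM, and was higher in YFP+ than in unstimulated samples by 1.42 (limma adjusted p = 0.00017). Icos fell from 113 to 65.6 CPM in YFP- (log2 change -0.80, limma adjusted p = 0.0058).

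All 23 signalling partners listed were tested. They had 1 higher and 9 lower in YFP+ against YFP-, 3 higher and 9 lower in YFP- against unstimulated, and 1 higher and 11 lower in YFP+ against unstimulated samples. For all genes tested the shares were 3.28% higher and 18.5% lower, 30.2% and 20.9%, and 27.5% and 33.3% in that order. Ptpn6, encoding the phosphatase SHP-1 that many inhibitory receptors recruit, was at 92.2, 364 and 194 CPM, higher than unstimulated in both sorts and lower in YFP+ than in YFP- (-1.01, limma adjusted p = 0.022). Inpp5d, encoding the lipid phosphatase SHIP-1, fell from 61.1 to 30.6 and 17.0 CPM. The adaptor gene Dok2 fell from 525 to 132 and 78.2 CPM, and Sh2d1a, encoding SAP, was at 113, 70.1 and 34.6 CPM.

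Of 22 transcription factor genes tied to checkpoint genes in T cells, 21 were tested. In YFP+ against YFP- 12 were lower and 0 higher in limma (1 at an unadjusted p under 0.05 and 1 with voom weights). In YFP- against unstimulated samples 9 were higher and 5 lower, and in YFP+ 5 were higher and 10 lower. Over all genes tested the shares were 3.28% higher and 18.5% lower, 30.2% and 20.9%, and 27.5% and 33.3% in that order of comparisons. Irf4 rose from 2.24 to 32.3 and 46.8 CPM and Egr2 from 11.1 to 285 and 266 CPM. Nr4a1 was at 9.04, 174 and 18.3 CPM, highest in YFP- like Tigit, Cd274 and Cd200r1. Tcf7 and Maf were lower in YFP+ than in the other groups, at 15.8, 28.3 and 3.97 CPM and at 10.7, 9.86 and 2.05 CPM. Prdm1 fell from 23.4 to 4.52 CPM in YFP- (limma adjusted p = 3.5e-07).

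The tested markers of innate lymphoid cells other than NK cells were lower in YFP+ than in YFP-, as were Cd96, Cd226 and Cd200r1. Of 7 such genes 5 were tested, and all 5 (Gata3, Rora, Cxcr6, Il7r and Itga1) were lower in YFP+ than in YFP-. Il7r was low, at 0.753 to 2.47 CPM in unstimulated, 1.08 to 1.69 CPM in YFP- and at most 0.166 CPM in YFP+ samples. It passed the filter without any YFP+ sample, that is, only through the groups where it was higher. In that comparison 18.5% of all genes tested were called lower and 3.28% higher. Il1rl1, on the list but not tested, went the other way, at 0.0651, 0.344 and 1.30 CPM in unstimulated, YFP- and YFP+ samples. The list summed to 124 to 135 CPM in unstimulated samples, 171 to 247 in YFP- and 50.8 to 122 in YFP+. NK cells also express several of these genes, and their part in the members' changes was not tested. Of 10 NK markers, all tested, 1 was higher and 5 lower in YFP+ than in YFP-, and 2 were higher and 6 lower than unstimulated in each sort. Beside these, 30.2% of all genes tested were higher and 20.9% lower in YFP- than unstimulated, and 27.5% and 33.3% in YFP+. Tbx21, encoding T-bet, and Klrk1 had higher means in both sorts, at 33.2, 80.9 and 85.7 CPM and at 188, 282 and 238 CPM. Prf1, encoding perforin, did too, at 2559, 3424 and 4010 CPM, but both sorts overlapped unstimulated samples. Klrd1, Klre1, Gzma and Eomes had lower means in both sorts. Ncr1 was at 247, 222 and 123 CPM, and Klrb1c, the gene of the receptor that was engaged, at 308, 75.3 and 6.50 CPM.

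Genes most like each member were taken by Pearson r of log2 CPM over the 12 samples, among 10416 protein coding genes. These values describe samples that share 3 groups and their libraries, and r follows from group differences as well as from sample deviations. Cd160 was nearest to Tnfsf14 (0.993) and Ptpn5 (0.993), Havcr2 to Ipo4 (0.989) and Socs4 (0.985), and Cd96 to R3hdm4 (0.987). Ctla4 was nearest to 1700025G04Rik (0.985), Pdcd1 to Fcrl1 (0.983), Cd200r1 to Cxcr6 (0.981), Cd226 to Cd7 (0.980), Tigit to Car2 (0.9748), Lag3 to Tmub2 (0.964) and Cd274 to Ikzf4 (0.945). Among members, r was 0.960 for Havcr2 with Pdcd1, 0.891 for Tigit with Cd200r1, 0.857 for Lag3 with Cd96 and 0.838 for Cd96 with Cd226, and -0.866 for Havcr2 with Ctla4.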

How the data were processed

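RNA-seq of 12 samples was used. Per the submitters' processing notes, bcl2fastq, STAR 2.7.9a, Subread and featureCounts 2.0.3 were used with GRCm38, with roles and settings not given in the sources used here. The authors deposited moderated log2 CPM per gene, per the file headers. After 287 repeated lines were dropped from 55774, the reads behind each log2 value were recovered, and 100% of them were whole numbers within 0.01 reads. Totals were 32.1 to 54.2 M reads. Of the features, 99.4% matched GENCODE M21, which gave positions and exon lengths, and 0 sample columns were left unmatched.

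All 12 samples were fitted together in limma 3.58.1 (R 4.3.3; lmFit, contrasts, eBayes with trend) on genes with log2 CPM above 0 in at least 4 samples, with Benjamini-Hochberg adjustment over 12364 genes. Ratios were tested by exact permutation with scipy 1.17.1 (Python 3.11.15; pandas 2.3.3; numpy 2.4.6), and plots drawn with matplotlib 3.10.9. On simulated reads for YFP+ against YFP-, 182 of 195 changed genes were called and 8 unchanged ones, among 12116 tested. The simulated dispersion was set at 0.04 and not estimated from these samples, in which 2691 genes were called in that comparison. The simulation therefore checks the code and does not give the error rates of the calls made here.

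The members and lists were chosen with earlier results of these data known. Named are all members, up to 3 called rises and 3 falls per related list and comparison with a mean log2 CPM of at least 2 (a selection is printed), and the genes most like each member. Alternatives were the replicate block, 2 groups only, no filter, a log2 CPM filter of 2, a pseudocount of 1 CPM, TMM, centring, rRNA-like features (359) left out, voom weights and leaving out each label. Leaving out the m3 stimulated samples was chosen after seeing the data.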

Additional observations from a re-analysis of the deposited data

Results flagged for a closer look

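Among 45 sets of 4 values (10 genes, 3 ratios, the library total and the rRNA-like share, each in 3 groups), 4 had 1 sample far from the others, measured as its gap to the nearest sample over the range of the group. Chance gives about 1 in 20, or 2.25 of 45.

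Pdcd1 in unstimulated samples had m4 lowest with a gap of 0.892 of the range, at a log2 CPM of -6.35 (0 reads) against -2.62 to -2.17 in the others (6 to 8 reads). Cd274 in YFP- samples had m3 lowest with a gap of 0.915, at 2.79 against 3.17 to 3.21. Cd200r1 in YFP+ samples had m3 lowest with a gap of 0.838, at -0.40 against 1.92 to 2.36. The log2 ratio of Cd96 to Cd226 in unstimulated samples had m4 lowest with a gap of 0.869, at 2.14 against 3.58 to 3.79.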

How the results depend on the processing

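For YFP+ against YFP-, leaving out labels or the YFP+ sample m3 gave 1571 (without m2) to 2397 called genes, 1643 without m4, against 2691, with fewer samples by construction. Calls of members stayed at 5 to 8, 6 to 8 and 6 to 8 for YFP+ against YFP-, YFP- against unstimulated and YFP+ against unstimulated over 15 alternatives, against 6, 7 and 7. Of 450 member values, 413 kept direction and side, 20 gained and 10 lost the threshold, and 7 reversed. The reversed ones were small and not called. They were Cd160 in YFP+ against YFP- with centring (0.033), and Cd96 in YFP- against unstimulated with centring (-0.062), without rRNA-like features (-0.11) and without m4 (-0.091). The rest were Tigit in YFP+ against unstimulated without rRNA-like features (-0.15), without f2 (-0.059) and without m4 (-0.018). Other fits leaving out samples kept the reported sign, up to 0.17 for Cd96 (without f2) and 0.25 for Tigit (without the YFP+ sample m3). The cause of the reversals was not tested. The Cd96 to Cd226 ratio of YFP+ against YFP- fell to 0.59 with a pseudocount of 1 CPM, from 1.75.

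Each sample's deviations from its group mean, gene by gene, were correlated between same-label samples of different groups. These correlations were 0.05 to 0.37 in YFP+ with YFP-, -0.06 to 0.10 in YFP- with unstimulated and -0.04 to 0.38 in YFP+ with unstimulated. These values do not settle whether the labels mark pairs, and the labels do not say so. The reported fit left them unpaired, and the replicate block was run as an alternative. By these deviations a sample's best match had its own label for 3, 1 and 2 of 4 labels, f2 being the exception in the first. With the replicate block 3098, 6682 and 7774 genes were called, against 2691, 6321 and 7522, and 8 members in each comparison. The block added Lag3 (limma adjusted p = 0.035) and Havcr2 (0.028) in YFP+ against YFP-, Cd226 (0.0054) in YFP- against unstimulated and Cd200r1 (0.038) in YFP+ against unstimulated. The ratio differences paired by label gave an exact sign-flip p of 0.125, the smallest possible.

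Depth limits Pdcd1 in unstimulated and Ctla4 and Cd226 in YFP+ samples, where few reads set the size of the fold.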
